A study of Mus musculus with 6 samples.

Results

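The mRNAs of the proteasome were followed in blood platelets of mice of 2 genotypes: wild type, and homozygous for the knock-in allele β3(R734C), which exchanges 1 amino acid in the intracellular tail of integrin β3. A missense change cannot be read from expression levels, so the level of Itgb3 does not check the labels. Members were all gene symbols that start with Psm, then a letter from a to g and then a digit. Libraries of homozygous mice are called mutant or knock-in libraries. The members number 50 of the 24346 symbols in the tables. The study sequenced 3 libraries per genotype from total RNA of blood thrombocytes, to learn what the allele does to platelet gene expression; macrothrombocytopenia is the condition it concerns. No treatment is named. Strain, sex and age of the mice, and whether a library held 1 animal or a pool, are not given in the sources used here, so p-values measure the spread between these libraries, which may be technical.

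The proteasome is the protease that degrades proteins marked with ubiquitin. Its 20S core is a barrel of α rings, which form the gate, and β rings, some of whose subunits carry the catalytic sites. The 19S cap binds ubiquitin chains, removes them, unfolds the substrate with a ring of ATPases and feeds it into the core. In cells exposed to interferon-γ, and in many blood cells, induced β subunits replace the catalytic ones to form the immunoproteasome, which favours peptides that fit MHC class I. Platelets have no nucleus and inherit their mRNAs and proteasomes from the megakaryocyte, and proteasome activity is known to be needed for platelet production.

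The 50 symbols comprised 8 α subunit genes, 7 constitutive β subunit genes, 3 genes of the immunoproteasome and 1 of the thymoproteasome. The 19S cap accounted for 6 ATPases, 3 other base subunits and 8 lid subunits. There were also 3 chaperones of 19S assembly, 4 activators, 1 further regulator and 4 chaperones of 20S assembly. The remaining 2 symbols match by name but are not known subunits: Psmc3ip, a meiotic recombination factor, was above 0 in 1 library, and Psme2b, a copy of Psme2, was listed at 0 in all 6. Values are FPKM, fragments scaled to transcript length and to the size of the library, so levels of different genes can be set side by side.

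The labelled cell type was borne out by all 10 platelet markers, which averaged 249 FPKM (Gp1ba) to 20200 FPKM (Pf4). Their sum was 50800 to 52800 FPKM in wild-type and 46800 to 52000 FPKM in knock-in libraries. Of the 10, 3 fell, Itgb3, Gp1ba and Tubb1 (limma adjusted p = 0.019, 0.0139 and 0.00759), and 0 rose. Over all tested genes 3.99% fell and 4.36% rose. Knock-in values lay below all wild-type values for 5 markers and above them for 2, Gp9 and Pf4, against 15.8% and 14.9% of all tested genes. The part of these markers in the results was not tested. Of 9 neutrophil markers found in the tables, none averaged above 0.709 FPKM, and Camp, Elane and Mpo were listed at 0 in all libraries. Cd3d, Cd3e and Cd4 of T cells and Ms4a1 and Pax5 of B cells were also listed at 0 throughout; Lyz2, a lysozyme gene, averaged 8020 FPKM, while the next of the 8 monocyte and macrophage markers, Cd14, averaged 1.42 FPKM. Haemoglobin mRNAs took 5.71% to 12.8% of the summed FPKM in wild-type libraries, and 20.4%, 3.2% and 4.04% in knock-in libraries 1, 2 and 3. Library totals of FPKM spanned 641278 to 708432 for the wild type and 758381 to 856863 for the mutant. Between 8383 and 9006 symbols per library were above 0. The worth of 1 fragment, read from the low values, put library depth at 0.882 to 1.05 times that of wild-type library 1. This is a rough reading, as 117 to 177 of 1128 to 1465 pairs of low values shared the commonest ratio. The absolute number of fragments was not estimated. In bulk RNA, fewer cells of a type and less RNA per cell cannot be told apart.

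The promoters of 3 genes are shown as a description, and no result rests on them. Psmd4 was the tested member with the lowest log2 fold change, and Psmb6 the catalytic subunit with the lowest. Psme3 was the tested member whose log2 fold change had the largest standard error. Each promoter is the stretch of 250 bases before the RefSeq start (GRCm38.p6, 5′ to 3′ on the gene's strand), and none contains an annotated exon. Capitals mark TGANNNNGC, the core of the antioxidant response element, or CCAAT, on either strand; the match starts 95 bases before the start in Psmd4, 9 in Psmb6 and 14 in Psme3.
Psmd4, chr3:95042615-95042864, minus strand: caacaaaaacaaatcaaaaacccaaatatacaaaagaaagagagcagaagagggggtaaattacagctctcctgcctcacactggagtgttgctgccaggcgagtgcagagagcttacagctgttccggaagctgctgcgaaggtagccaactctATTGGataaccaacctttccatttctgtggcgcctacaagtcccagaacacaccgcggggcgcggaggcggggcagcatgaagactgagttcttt
Psmb6, chr11:70525107-70525356, plus strand: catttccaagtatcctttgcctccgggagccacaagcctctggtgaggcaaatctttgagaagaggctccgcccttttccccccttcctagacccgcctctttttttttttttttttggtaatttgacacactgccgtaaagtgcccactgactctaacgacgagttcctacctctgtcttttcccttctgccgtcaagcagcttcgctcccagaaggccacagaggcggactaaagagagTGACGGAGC
Psme3, chr11:101315963-101316212, plus strand: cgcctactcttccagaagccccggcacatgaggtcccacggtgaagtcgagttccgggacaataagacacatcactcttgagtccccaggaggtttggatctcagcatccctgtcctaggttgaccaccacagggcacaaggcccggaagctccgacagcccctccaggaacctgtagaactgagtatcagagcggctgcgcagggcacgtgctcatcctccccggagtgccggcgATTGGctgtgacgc
RefSeq windows were found for 42 of the 50 members; Psmb1, the other member that fell, has no entry. Over windows of 300 bases, which add 50 bases after the start, TGANNNNGC was present in 26 of 45 member windows (57.8%) and in 41.3% of all 32851 windows. CCAAT was present in 15 of the 45 (33.3%) and in 37.4% of all. The matches describe the letters only.

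Proteasome mRNAs covered a wide range of levels in platelets. Of the 50 symbols, 39 were above 0 in all 6 libraries, 2 were listed at 0 in all (Psme2b and Psma8, a testis form of an α subunit) and 9 were at 0 in some. Means over the 6 libraries reached 10 FPKM for 19 members and 30 FPKM for 10, and stayed under 1 FPKM for 12. Subunits of the same particle differed widely in mRNA: Psmd4 averaged 150 FPKM and Psmd7, a lid subunit, 0.353. Within the α ring the mean of Psma3 was 14.7 times that of Psma4, within the constitutive β ring that of Psmb5 was 14 times that of Psmb3, and within the ATPase ring that of Psmc3 was 86.9 times that of Psmc1. The levels kept nearly the same order in the 2 genotypes (Spearman correlation 0.962 over the 38 tested members, a description across genes of the same libraries; 0.954 over all tested genes). Psma3, Psma4, Psmb3, Psmb5 and Psmc1 have annotated copies with at least 95% identity over 300 bases or more, so their ratios are less certain. The annotation behind the tables is not given in the sources used here, and whether low values are failed estimates was not tested.

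**Figure D1:**
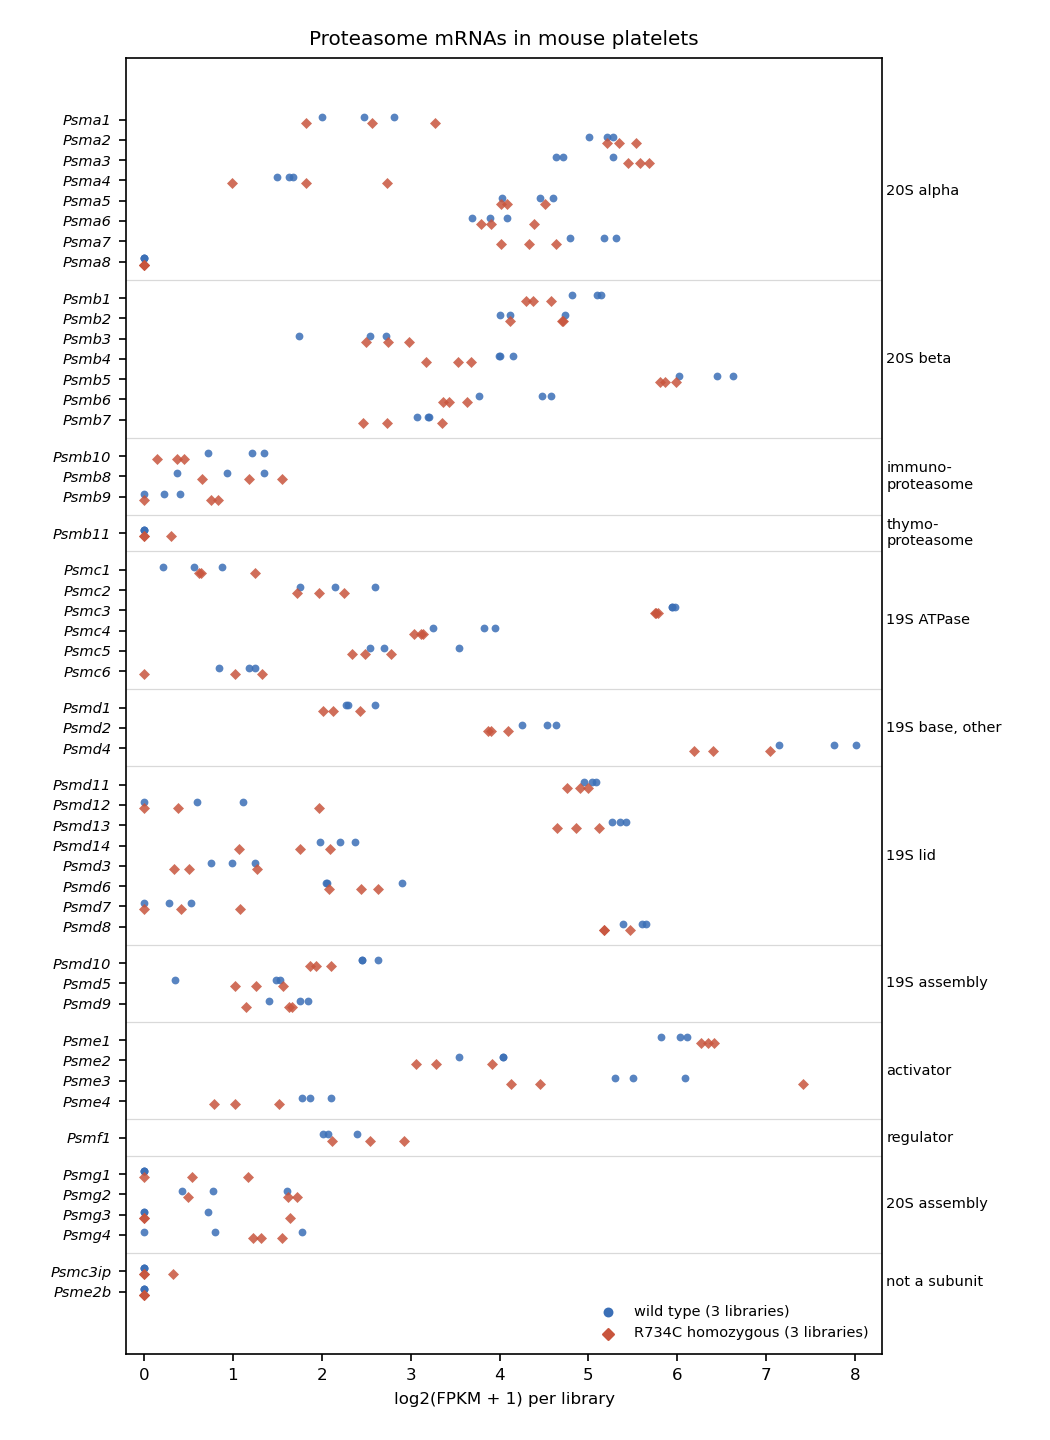
Level of each of the 50 proteasome symbols, as log2(FPKM + 1), in the 3 wild-type libraries (blue circles) and the 3 R734C homozygous libraries (red diamonds), ordered by role. Psmd4, with a mean of 150 FPKM, lies farthest right among the members, Psmd10 and Psmb4 separate by genotype, and Psme3 spreads from 16.5 to 169 FPKM within mutant libraries.

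Genotypes were compared with limma on log2(FPKM + 1) over all 4859 symbols with a mean of at least 1 FPKM, with p-values adjusted over all of them (Benjamini-Hochberg). Among the 38 members that passed this filter, 2 fell in mutant libraries, Psmd4 and Psmb1, and 0 rose at an adjusted p under 0.05. Over all tested genes 3.99% fell and 4.36% rose, so the share of members called, 2 of 38, was near the background. At an unadjusted p under 0.05, 11 members were lower and 2 higher in limma, where the background is 12.9% and 12.5%. The 3 knock-in values lay below all 3 wild-type values for 12 tested members and above them for 2, against 15.8% and 14.9% of all tested genes. The log2 fold change was below 0 for 24 of 38 members (63.2%) and for 51.5% of all tested genes, and the median was -0.20 for the members and -0.01 for all tested genes.

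**Figure D2:**
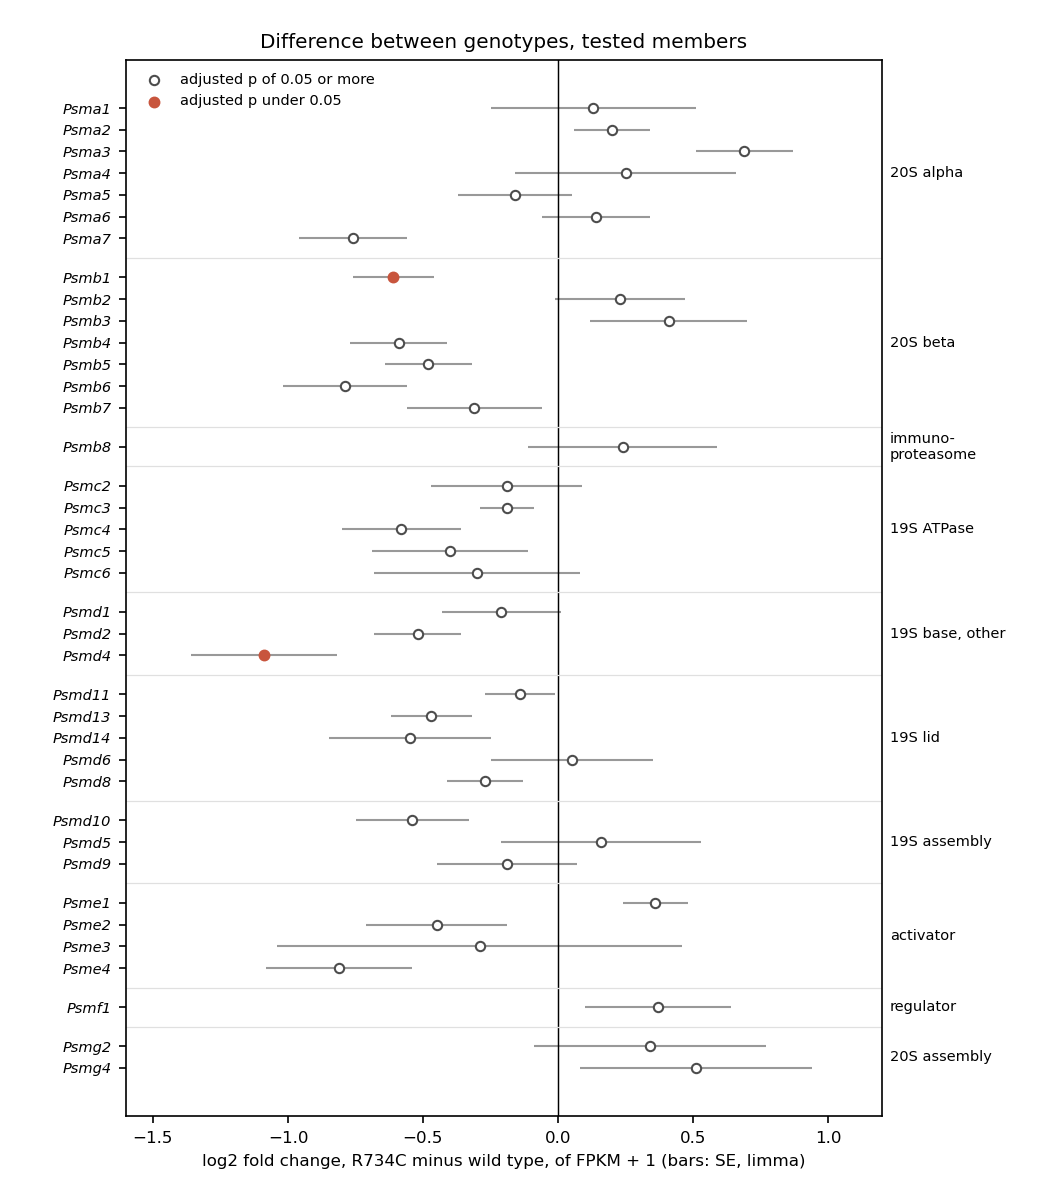
Log2 fold change (R734C homozygous minus wild type, of FPKM + 1) of the 38 tested members with the standard error from limma, ordered by role; filled points passed an adjusted p of 0.05. Filled points are Psmd4 at -1.09 and Psmb1 at -0.61; all 5 tested ATPases and all 3 other base subunits lie below 0, and Psma3 at 0.69 and Psma7 at -0.76 mark the ends of the α ring.

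Genes of the α ring differed in both directions, and none passed the test. Of 7 tested members 0 rose and 0 fell, with a median log2 fold change of 0.14. In limma at an unadjusted p under 0.05, 1 was higher and 1 lower, against 12.5% and 12.9% of all tested genes. Psma3, an α ring subunit, had the highest mean of the ring over all 6 libraries, with Psma2 close to it, but stood below Psma2 and Psma7 in the wild-type mean. It measured 37.7, 23.9 and 25.2 FPKM in wild-type and 42.4, 46.7 and 50.1 FPKM in knock-in libraries. The groups did not overlap, and the difference did not pass (log2 fold change 0.69, SE 0.18, limma adjusted p = 0.0559). The limma adjusted p ranged over the alternatives from 0.00378, without the library of each group that was richest in haemoglobin, to 0.179, without wild-type library 2. Psma3 (chromosome 12, 70974621 to 70996347, plus strand, GRCm38) has 4 annotated copies with at least 95% identity over 300 bases or more. Of these copies 3 are processed pseudogenes, so the level of Psma3 is less certain. Other members have copies by this measure too, among them Psma4, Psma5, Psmb3, Psmb5, Psmc1, Psmd2 and Psmd11.

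Psma7, another α subunit, had a log2 fold change of the opposite sign. It measured 26.6, 35.1 and 38.6 FPKM in wild-type libraries and 15.2, 19.2 and 23.9 FPKM in mutant libraries. Again no value overlapped, and again the difference did not pass (log2 fold change -0.76, SE 0.20, limma adjusted p = 0.0575). Psma2, close to Psma3 in level, measured 35 ± 3.38 FPKM in wild-type libraries and 40.3 ± 4.69 in mutant libraries (SD, n = 3 each), with overlapping groups. Psma4, the lowest tested α subunit, averaged 2.56 FPKM and spanned 0.993 to 5.67 within mutant libraries. Summed over the 8 α genes, which includes Psma8 at 0, levels were 131 to 141 FPKM in wild-type libraries and 142 to 152 in mutant libraries, a description dominated by Psma2, Psma3 and Psma7. As a share of the summed FPKM of the library the order was the other way and the groups overlapped, with 0.199 to 0.218 permille for the wild type against 0.173 to 0.201 permille for the mutant.

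Most constitutive β genes had lower mean levels in mutant libraries, and 1 of them passed the test. Of 7 tested members 1 fell and 0 rose, against 3.99% and 4.36% of all tested genes. At an unadjusted p under 0.05 in limma, 4 were lower and 0 higher, against 12.9% and 12.5%. The log2 fold change was below 0 for 5, against 51.5% of all tested genes, and the median was -0.48. Psmb1, which encodes a structural β subunit without a catalytic site, measured 27.2, 33.2 and 34.4 FPKM in wild-type libraries. In the knock-in it measured 22.8, 18.7 and 19.7 FPKM, all below the lowest wild-type library. The fall was 1.55-fold between group means (log2 fold change -0.61, SE 0.15, limma adjusted p = 0.0455, lower in 3 of 3 knock-in libraries). Psmb1 lies on chromosome 17 at 15475021 to 15499751 of GRCm38, minus strand, and no exon of it overlaps another gene. The call was lost without wild-type library 2 or 3 or knock-in library 2 or 3 (log2 fold change -0.54 to -0.59, adjusted p 0.137 to 0.153), with no filter on low values (0.107), without the variance trend (0.0913), with quantile normalization (0.0539) and with the length trend removed (0.0518).

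The catalytic subunits of the constitutive ring did not pass singly. Psmb5, which carries the chymotrypsin-like site, was the most abundant β gene, at 63.9, 85.8 and 97.9 FPKM in wild-type libraries and 54.8, 56.9 and 62.2 FPKM in mutant libraries. The lowest wild-type value stood just above the highest knock-in value (log2 fold change -0.48, SE 0.16, limma adjusted p = 0.108). Psmb6, which carries the caspase-like site, measured 21.2, 12.6 and 22.8 FPKM against 11.4, 9.33 and 9.81 FPKM, also without overlap (log2 fold change -0.79, SE 0.23, limma adjusted p = 0.0728). Psmb7, which carries the trypsin-like site, had overlapping groups, at 7.93 ± 0.433 FPKM in wild-type libraries and 6.47 ± 2.46 in mutant libraries (SD, n = 3 each; limma adjusted p = 0.505). Exons of Psmb7 overlap those of Nek6 on the other strand. Psmb4, a structural subunit, measured 14.9, 16.8 and 15.1 FPKM in wild-type libraries and 8.05, 11.8 and 10.6 FPKM in mutant libraries (limma adjusted p = 0.0836). With the trend on transcript length removed, Psma7, Psmb4, Psmb5 and Psmb6 passed as lower, at a limma adjusted p of 0.0319, 0.0465, 0.0305 and 0.0327, where 3.79% of all tested genes passed as lower. Psma3 passed as higher in that setting (limma adjusted p = 0.047), where 3.41% of all tested genes passed as higher. Over the 4694 tested genes with an annotated length, longer transcripts had lower log2 fold changes (Spearman correlation -0.203, across genes). Over the 38 tested members this correlation was only -0.0712. Tested members, by their longest coding transcript, had a median length of 1490 bases against 2716 for all.

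Psmb3, the lowest β gene at a mean of 5 FPKM, and Psmb2 had log2 fold changes of 0.41 and 0.23, and neither passed (limma adjusted p = 0.444 and 0.623). Summed over the 7 genes, the constitutive β ring stood at 153 to 208 FPKM in wild-type libraries and 130 to 137 FPKM in mutant libraries, a sum in which Psmb5 weighs most.

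Immunoproteasome genes had low values in both genotypes, as did some 19S subunits, such as Psmc1 (0.657 FPKM) and Psmd7 (0.353 FPKM). Psmb8, which replaces Psmb5, averaged 1.09 FPKM, against 70.2 for Psmb5. It measured 0.917, 1.55 and 0.299 FPKM in wild-type libraries and 1.27, 1.93 and 0.579 FPKM in mutant libraries, so the groups overlapped (log2 fold change 0.24, SE 0.35, limma adjusted p = 0.722). Psmb9, which replaces Psmb6, averaged 0.328 FPKM and was listed at 0 in 1 library of each genotype; its exons overlap those of Tap1 on the other strand, which the library kit does not separate. Psmb10, which replaces Psmb7, measured 1.56, 0.646 and 1.33 FPKM in wild-type libraries and 0.11, 0.292 and 0.369 FPKM in mutant libraries. All 3 knock-in values were below the wild-type ones, but its mean of 0.718 FPKM kept it out of the test; fitted with no filter, it had a fold change of -0.77 on the log2 scale (SE 0.27, limma adjusted p = 0.286).

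Each induced subunit was compared with the subunit it replaces as a log2 ratio within a library. The induced subunits averaged at most 1.09 FPKM, so the added 1 weighs heavily and the ratios do depend on library scaling. For Psmb9 to Psmb6 and Psmb8 to Psmb5 the constitutive subunit made up the larger part of the difference. On the log2 scale Psmb6 differed by -0.79 and Psmb9, with no filter, by 0.32, and Psmb5 by -0.48 and Psmb8 by 0.24. Psmb7 differed by -0.31 and Psmb10, with no filter, by -0.77. The log2 ratio of Psmb8 to Psmb5, on FPKM + 1, was -5.47 ± 0.67 in wild-type libraries and -4.75 ± 0.52 in mutant libraries (SD, n = 3 each; exact two-sided permutation p = 0.3). That of Psmb9 to Psmb6 was -4.06 ± 0.63 and -2.95 ± 0.43 (exact permutation p = 0.2, n = 3 each). That of Psmb10 to Psmb7 was -2.06 ± 0.37 and -2.53 ± 0.61 (exact permutation p = 0.3, n = 3 each), and this difference of -0.47 was -1.49 with a pseudocount of 0.1, -0.04 with a pseudocount of 5 and -0.13 without knock-in library 1. The difference of 1.11 for Psmb9 to Psmb6 was 1.70 and 0.71 with those pseudocounts. Over the 3 ratios the Benjamini-Hochberg adjusted value from these exact tests was 0.3 for each, and 3 against 3 libraries cannot give less than 0.1. The thymoproteasome gene Psmb11, normally confined to the thymus cortex, was above 0 in 1 library, at 0.233 FPKM.

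**Figure D3:**
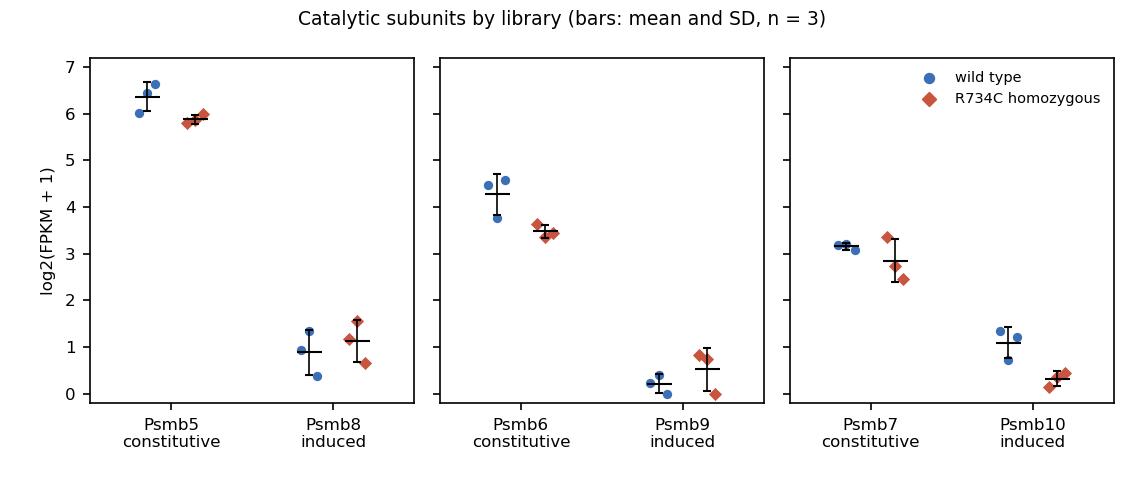
Level, as log2(FPKM + 1), of the 3 constitutive catalytic subunits and the induced subunits that replace them, by library, with group mean and SD (n = 3). Each induced subunit lies below its constitutive partner in all 6 libraries; Psmb5 and Psmb6 do not overlap between genotypes, and Psmb10 is lower in mutant libraries at under 1 FPKM.

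Of 13 tested 19S subunits 1 fell and 0 rose, against 3.99% and 4.36% of all tested genes. Unadjusted p-values under 0.05 in limma had 4 lower and 0 higher, against 12.9% and 12.5%. Values were lower without overlap for 5, against 15.8% of all tested genes. A log2 fold change below 0 was found for 12, against 51.5% of all tested genes, and the median was -0.30. Of the 4 subunits too low for the test, Psmc1, Psmd7 and Psmd12 had higher and Psmd3 lower means in mutant libraries, all with overlap. Psmd4, whose product is a receptor for ubiquitin chains, was the most abundant member and had the lowest log2 fold change of those tested. It measured 140, 215 and 257 FPKM in wild-type libraries and 131, 83.6 and 71.8 FPKM in mutant libraries. The groups came close, at 140 FPKM in wild-type library 1 and 131 FPKM in knock-in library 1, the library of each group richest in haemoglobin, and were far apart otherwise. The fall was 2.14-fold between group means (log2 fold change -1.09, SE 0.27, limma adjusted p = 0.0421, lower in 3 of 3 knock-in libraries). Without those libraries the log2 fold change was -1.59 (adjusted p = 0.000278). Psmd4 lies on chromosome 3 at 95032694 to 95042614 of GRCm38, minus strand, and no exon of it overlaps another gene. The call was lost without wild-type library 2 or 3 or knock-in library 2 or 3 (log2 fold change -0.90 to -1.03, adjusted p 0.135 to 0.142), with no filter on low values (0.162), without the variance trend (0.1, where 0 of all 4859 genes passed) and with a robust variance estimate (0.079).

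The other base subunits had log2 fold changes of the same sign but did not pass. Psmd2, a scaffold that docks ubiquitin shuttles, measured 18.1, 22.2 and 23.8 FPKM in wild-type libraries and 16.1, 13.6 and 14 FPKM in mutant libraries, without overlap (log2 fold change -0.52, SE 0.16, limma adjusted p = 0.0853). Psmd1, the other large scaffold, averaged 3.94 FPKM and overlapped. The ATPase Psmc3, the most abundant of its ring, had the smallest standard error of the tested members, at 60.4, 60.5 and 61.9 FPKM in wild-type libraries and 52.8, 53.2 and 53.8 FPKM in mutant libraries. Its groups did not overlap, yet the difference was 1.14-fold and did not pass (log2 fold change -0.19, SE 0.10, limma adjusted p = 0.289). Exons of Psmc3 overlap those of Slc39a13 on the other strand. The ATPase Psmc4 measured 12 ± 3.08 FPKM in wild-type libraries and 7.58 ± 0.31 in mutant libraries (SD, n = 3 each; limma adjusted p = 0.137). Psmc6, the lowest tested ATPase, averaged 1 FPKM and was listed at 0 in knock-in library 2, and Psmc1, at 0.657 FPKM, was not tested. The 6 ATPases summed to 84.9 to 85.9 FPKM in wild-type libraries and 68.8 to 72.3 FPKM in mutant libraries. Psmc3, which did not pass, weighs most in this sum.

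In the lid, 0 of 5 tested genes rose or fell, with a median of -0.27. With an unadjusted p under 0.05 in limma, 1 was lower and 0 higher, against 12.9% and 12.5% of all tested genes. Psmd13 measured 37.5, 39.8 and 41.7 FPKM in wild-type libraries and 33.6, 28.1 and 24.1 FPKM in mutant libraries, without overlap (log2 fold change -0.47, SE 0.15, limma adjusted p = 0.0919). Its exons overlap those of Sirt3 on the other strand. Psmd8, the most abundant lid gene, measured 45.8 ± 4.43 and 37.8 ± 4.8 FPKM (SD, n = 3 each; limma adjusted p = 0.269). Psmd11 measured 31.6 ± 1.51 and 28.7 ± 2.52 FPKM (SD, n = 3 each, limma adjusted p = 0.575). Its near-identical copy A730017L22Rik averaged 0.0552 FPKM, and another copy, the processed pseudogene Gm14048, is not among the symbols listed. Psmd14, the deubiquitinase of the lid, was the lowest tested lid gene, at 3.58 ± 0.616 and 2.25 ± 1.08 FPKM (SD, n = 3 each; limma adjusted p = 0.304). The lid genes Psmd3, Psmd7 and Psmd12 averaged under 1 FPKM and were not tested.

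The assembly chaperones among the members averaged at most 3.82 FPKM over the 6 libraries. The 19S chaperone Psmd10 (gankyrin) measured 4.48, 5.19 and 4.47 FPKM in wild-type libraries and 2.82, 2.65 and 3.3 FPKM in mutant libraries, without overlap, and did not pass (log2 fold change -0.54, SE 0.21, limma adjusted p = 0.143). Psmd5 and Psmd9, other 19S chaperones, averaged 1.39 and 2.02 FPKM, and both overlapped. Among the 20S chaperones, Psmg2 and Psmg4 averaged 1.32 FPKM each and did not pass, and Psmg1 and Psmg3 were each listed at 0 in 4 libraries.

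Activators differed among themselves, and 0 of 4 passed the test. Without adjustment, 1 was higher and 1 lower at p under 0.05 in limma, against 12.5% and 12.9% of all tested genes. Psme1 and Psme2 encode the α and β subunits of the interferon-inducible activator PA28, which opens the core gate without ubiquitin. Psme1 measured 55.3, 64.1 and 67.8 FPKM in wild-type libraries and 76.2, 80.2 and 84 FPKM in mutant libraries, without overlap. The difference did not pass (log2 fold change 0.36, SE 0.12, limma adjusted p = 0.0997). Psme2, whose transcript is 99.4% identical to Psme2b over 794 bases, measured 10.7, 15.4 and 15.4 FPKM in wild-type libraries and 14.1, 7.32 and 8.78 FPKM in mutant libraries, with overlap (limma adjusted p = 0.317). Exons of Psme1 and of Emc9, on the other strand, overlap. Psme4, a nuclear activator, measured 3.3, 2.43 and 2.66 FPKM in wild-type libraries and 1.04, 0.732 and 1.86 FPKM in mutant libraries, without overlap (log2 fold change -0.81, SE 0.27, limma adjusted p = 0.108). Psmf1, which encodes the regulator PI31, overlapped, at 3.5 ± 0.653 and 4.92 ± 1.64 FPKM (SD, n = 3 each).

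Psme3, the gene of the nuclear activator PA28γ, had the largest standard error of the tested members. It measured 66.9, 44.4 and 38.2 FPKM in wild-type libraries 1, 2 and 3 and 169, 16.5 and 21 FPKM in knock-in libraries 1, 2 and 3. The 6 libraries fell in the same order for Psme3 as for the haemoglobin share of FPKM. Of 38 tested members only Psme3 kept that order, as did 1.4% of all tested genes. Over all 6 libraries the genotypes did not differ beyond this spread (log2 fold change -0.29, SE 0.75, limma adjusted p = 0.857). Without knock-in library 1 Psme3 passed as lower (log2 fold change -1.33, limma adjusted p = 0.01). Without the haemoglobin-rich library of each group it passed too (-1.10, limma adjusted p = 0.00498), as 1 of 8 members, where 7.57% of all tested genes passed as lower. The 8 erythroid genes in the tables summed to 37400 to 92500 FPKM in wild-type libraries and 178000, 24500 and 31900 FPKM in knock-in libraries 1, 2 and 3, and their part in the Psme3 result was not tested.

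**Figure D4:**
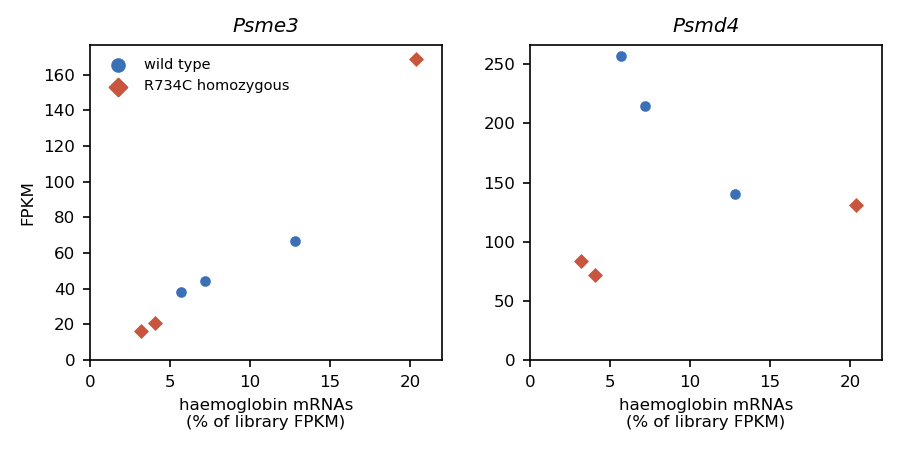
FPKM of Psme3 and Psmd4 in each library (blue circles wild type, red diamonds R734C homozygous) against the share of summed FPKM taken by haemoglobin mRNAs. Psme3 orders the 6 libraries as haemoglobin does, with knock-in library 1 at 20.4% far to the right; Psmd4 does not.

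Genes that work with the proteasome but carry other names were taken from a list of 39 names, alternative names of 1 gene included, of which 35 were in the tables and 27 tested. Of these 27, 1 rose and 1 fell, where 4.36% of all tested genes rose and 3.99% fell. Their median log2 fold change was -0.15, against -0.01 for all tested genes. Tapbp, which encodes tapasin of the MHC class I peptide-loading complex, fell from 78.5 ± 4.33 to 56.8 ± 1.2 FPKM (SD, n = 3 each; log2 fold change -0.46, SE 0.10, limma adjusted p = 0.0337). Ubb, a polyubiquitin gene, was the most abundant gene of the list at a mean of 3170 FPKM and did not differ beyond its spread (limma adjusted p = 0.832). Pomp, the chaperone of core maturation, measured 57.9 ± 7.05 and 70.6 ± 7.86 FPKM, and Shfm1, a small 19S subunit, 74.3 ± 8.04 and 82.5 ± 3.92 FPKM (SD, n = 3 each); neither passed.

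Adrm1, the gene of another ubiquitin receptor of the 19S cap, averaged 2.84 FPKM and did not pass (limma adjusted p = 0.374). The transcription factor gene Nfe2l1, whose product drives proteasome genes when the protease is inhibited, measured 3.46 ± 0.417 and 3.06 ± 0.711 FPKM (SD, n = 3 each), with overlap.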

How the data were processed

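RNA of 6 platelet libraries, 3 wild type and 3 homozygous knock-in, was sequenced; groups and replicate numbers come from the sample titles. Per the file headers, the authors deposited 1 table of FPKM by gene symbol for each library. Per the labels' protocols, full-length cDNA (SMART-Seq HT) was turned into Nextera XT libraries, a chemistry that does not mark strand. Per the submitters' processing notes, the pipeline held Cuffdiff 2.2.1, TopHat2 2.1.1, SAMtools 0.1.18 and Bowtie2 2.2.8, with build mm10; their settings and the annotation are not given in the sources used here.

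FPKM were used without further scaling. All symbols with a mean of at least 1 FPKM (4859) were fitted together in R 4.3.3 (limma 3.58.1), taking log2(FPKM + 1) and a single term for genotype, with a variance trend, two-sided moderated tests and Benjamini-Hochberg adjustment; the threshold was 0.05. Fold changes on this scale understate changes of low genes. The script was tested on simulated data. Ratios were compared with exact permutation tests. Positions, lengths and overlaps are from GENCODE M21 (GRCm38), copies were found with blastn 2.17.0, and promoters are from RefSeq (GRCm38.p6). Library fragment numbers are unknown; relative depth came from the commonest ratio of values under 0.5 FPKM. Replicates of a group shared 0 identical values above 0.

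Members named by rule were those past the test, the catalytic and immunoproteasome subunits, and the highest and lowest tested gene of each role. For some of these only summary values are given, not the values of each library. Psma2, Psma7, Psmb4, Psmc4, Psmd2, Psmd11, Psmd13, Psme2 and Psme3, the genes named by single values among the untested, and the pathway genes other than Tapbp were chosen after their values were seen. Some genes of the pathway list are counted but not reported here by name. The members and lists were chosen with earlier results of these data known.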

Additional observations from a re-analysis of the deposited data

How the results depend on the processing

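The counts of members called depended on the processing. Besides the 2 lower and 0 higher of the reported fit, limma called 5 lower and 1 higher with the length trend removed (3.79% and 3.41% of all tested genes), 5 and 1 with sample weights (5.78% and 6.63%), 8 and 1 without the haemoglobin-rich library of each group (7.57% and 7.48%), 3 and 1 at a mean of at least 5 FPKM (9.2% and 9.38%), 2 and 1 with median-of-ratios factors (3.93% and 5.21%), and 2 and 1 with a robust variance estimate (4.94% and 5.58%). It called 1 lower and 0 higher with quantile normalization (3.68% of all genes each way), and 0 and 0 with no filter (13 lower and 2 higher at an unadjusted p under 0.05; 0.473% and 0.4% of all genes called) and without the variance trend (11 and 2 unadjusted; 0 of 4859 genes called). Leaving out 1 library gave 0 to 4 lower and 0 to 1 higher. The 0 lower arose without wild-type library 2 or 3 or knock-in library 2 or 3 (8 to 9 lower unadjusted). Of all genes, 1.13%, 0.967%, 0.307% and 0% were called lower without wild-type 3, knock-in 2, wild-type 2 and knock-in 3. These zeros are therefore not particular to the members. The 4 lower arose without wild-type library 1 (3.33% of all genes called lower) and without knock-in library 1 (6.25%). The member called higher was Psma3 each time. Fewer samples apart, the cause was not tested.

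Same-numbered libraries deviated from their group means with correlations of 0.158, 0.0235 and 0.141 for numbers 1, 2 and 3, so the numbers were not taken to pair the samples; every library but knock-in 2 correlated best with its own number. With the number as a replicate block, limma called 1 member lower (Psma7; 2.88% of all genes) and 0 higher (2 higher unadjusted; 3.42%), and the adjusted p was 0.0565 for Psmd4 and 0.0822 for Psmb1. The exact paired p of the log2 ratios with the replicate block was 0.25, 0.25 and 0.5, and 0.25 is the smallest possible; a block cannot move the mean differences of 0.73, 1.11 and -0.47.

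With a pseudocount of 0.1 the difference in log2 ratio (knock-in minus wild type) was 1.70 in place of 1.11 for Psmb9 to Psmb6, and -1.49 in place of -0.47 for Psmb10 to Psmb7; with a pseudocount of 5 they were 0.71 and -0.04. Of 30 named members with a test, some not called changed the sign of their log2 fold change: Psma4 to -0.19 without knock-in library 1 and -0.18 without both haemoglobin-rich libraries, Psmb3 to -0.01 without both, Psmb8 to -0.01 and Psmd5 to -0.22 without wild-type library 3, Psmc6 to 0.09 without knock-in library 2, and Psme3 to 0.31 and 0.14 without knock-in library 2 and 3. Over the fits that left out 1 library the other ends were 0.68 for Psma4, 0.48 for Psmb8, -0.43 for Psmc6, 0.36 for Psmd5 and -1.33 for Psme3. The number of fragments behind a value is unknown, so the precision of levels under 1 FPKM cannot be given.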

Other observations

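Ratios within a ring or complex are given for a pair of activator subunits and a pair of α ring genes. The pairs were picked after their values were seen, so the values are a description with no test. The log2 ratio of Psme1 to Psme2, the α and β subunits of PA28, on FPKM + 1, was 2.27, 1.99 and 2.07 in wild-type libraries and 2.36, 3.29 and 3.12 in mutant libraries. The log2 ratio of the α ring genes Psma3 to Psma7 was 0.48, -0.54 and -0.60 in wild-type libraries and 1.42, 1.24 and 1.04 in mutant libraries. Neither pair overlapped between genotypes. Apart from the pseudocount, a ratio within a library does not depend on library scaling; Psma3 and Psme2 have near-identical copies, and Psme1 overlaps exons of Emc9.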
